A study of Oryza sativa Japonica Group and Oryza sativa with 4 samples.

Results

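The genes described here encode the subunits of photosystem I and photosystem II, their chlorophyll-binding antenna proteins and plastocyanin in rice leaves. They were chosen by words in the annotation (photosystem, chlorophyll a/b, light-harvesting, plastocyanin), with 1 CCT-domain gene left out, which gave 67 of the 37849 annotated genes. The genes lay on all 12 chromosomes, with 13 on chromosome 7 and 10 on chromosome 3. The set held 12 photosystem I genes, 28 photosystem II genes, 19 antenna genes, 1 plastocyanin gene, 3 assembly factors and 4 plastocyanin-like proteins that share a domain word only. Expression was measured by RNA-Seq in leaves of seedlings aged 21 days, with and without feeding by the green rice leafhopper (GRH), a sap-sucking insect. Ilpum, the wild type, is a GRH-susceptible japonica cultivar, and NIL is a near-isogenic line that carries Grh1, a GRH resistance locus from the indica cultivar Shingwang, introgressed into Ilpum. Control seedlings had no insects, and infested seedlings had 10 nymphs of the second instar each for 48 h. Each of the 4 conditions (Ilpum control, Ilpum GRH, NIL control, NIL GRH) had 1 library, so no test between conditions was possible and differences have no replicate check.

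In the thylakoid membranes of the chloroplast, antenna proteins hold chlorophyll and pass absorbed light energy to the reaction centres. Photosystem II uses it to split water and passes electrons through the cytochrome b6f complex to plastocyanin, a small copper protein, and photosystem I then drives them on to ferredoxin. The core subunits that carry most of the cofactors are encoded in the chloroplast genome, whereas the antenna proteins and most of the smaller subunits are encoded in the nucleus and imported. The mRNAs of the nuclear genes are among the most abundant in green leaves.

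Libraries held between 894661 (Ilpum GRH) and 5037081 (NIL control) estimated reads assigned to genes, and both GRH libraries were shallower than both controls. Levels are given as FPKM, the fragments of a gene scaled by transcript length and library size, and responses as log2FC, the log2 ratio of FPKM + 1. A gene was compared if its FPKM averaged 1 or more across the libraries, which left 18575 of all genes and 50 of the 67. Where 4 values are given in a row, they stand for Ilpum control, Ilpum GRH, NIL control, NIL GRH, in this order. Of the other 17, 12 had no reads in any library and 5 had a few. Intervals in parentheses are exact 95% intervals for the log2 ratio of reads after scaling to library totals (CPM) and cover counting error only. Leaf markers were abundant, with rubisco small subunit and rubisco activase genes summing to between 3627 and 15700 FPKM and 1 to 3 of 8 listed at 0. The root marker RCc3 was at 0 FPKM for 3 of its 4 genes in all libraries, and the other reached 3.598 FPKM in Ilpum GRH alone. Genes with glutelin or prolamin in their description, a seed list of 51 that also took in protein-processing enzymes, summed to 421, 971, 590 and 493 FPKM. In Ilpum 15 of its 29 compared genes were at least 2-fold higher with GRH (median log2FC 1.0, 20.4% of all genes that much higher), and in NIL 19 were at least 2-fold lower (median -2.38, 20.9% of all genes that much lower). In NIL the list thus lay in the same direction as the members, and its part in their values was not tested.

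In Ilpum, the share of all reads that fell on the 67 genes was 5.13% without insects (exact 95% interval 5.10 to 5.16) and 2.72% with GRH (2.69 to 2.75). In NIL the share was 3.54% (3.53 to 3.56) and 1.43% (1.41 to 1.45). The infested library was below its control in each line, and NIL was below Ilpum in each treatment. In these bulk leaf samples, fewer mesophyll cells and less of these mRNAs per cell cannot be told apart. Antenna genes took the largest part, at 3.31%, 1.69%, 2.07% and 0.734% of reads in the same order. Photosystem I genes took 0.682%, 0.370%, 0.449% and 0.161%, and photosystem II genes 1.04%, 0.606%, 0.939% and 0.508%.

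The proportions between antenna, photosystem I and nuclear photosystem II genes moved less than their sums. Summed antenna FPKM was 3.29, 3.19, 3.51 and 3.02 times summed photosystem I FPKM. Nuclear photosystem II subunits stood at 0.981, 1.09, 1.23 and 1.20 times photosystem I in the same libraries. These ratios depend on PsaD, a photosystem I gene with nearly all of its reads in NIL. Without it, the antenna ratios were 3.30 and 3.20 in Ilpum and 3.93 and 3.55 in NIL, so that NIL GRH lay above Ilpum GRH and not below it. A pair of Lhcb1 genes, which encode the main protein of the photosystem II antenna, made up 58.7%, 60.9%, 64.0% and 69.2% of summed antenna FPKM.

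**Figure D1:**
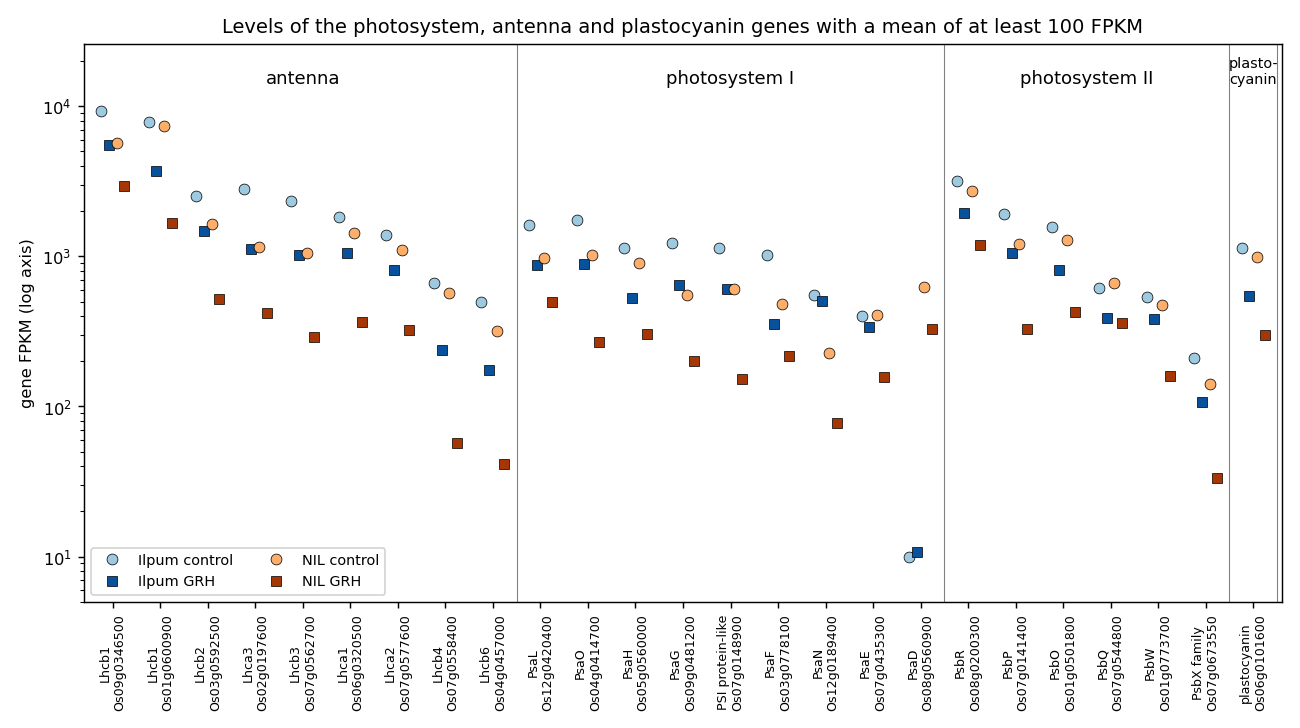
Gene FPKM (log axis) of the 25 nuclear photosystem, antenna and plastocyanin genes that averaged 100 FPKM or more, 1 point per library and no error bars because each condition had 1 library. NIL GRH (dark squares in red-brown) is the lowest of the 4 points for most genes, while PsaD sits near 10 FPKM in both Ilpum libraries and at 624 and 328 FPKM in NIL.

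Antenna mRNAs were lower with GRH in both lines, and further below their control in NIL. At least 2-fold lower levels were found for 6 of 14 antenna genes in Ilpum, where 28.6% of all compared genes were that much lower, and for 11 of 14 in NIL, where the share over all genes was 20.9%. The median antenna log2FC was -0.77 in Ilpum and -1.91 in NIL, beside -0.10 and -0.06 over all compared genes. None of the 14 was at least 2-fold higher, against 20.4% of all genes in Ilpum and 14.7% in NIL. Summed antenna CPM had a log2 ratio of -0.97 (-1.0 to -0.95) in Ilpum and -1.50 (-1.53 to -1.46) in NIL.

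The most abundant member was the Lhcb1 gene Os09g0346500 (chromosome 9, 10845779 to 10847012), at 9317, 5562, 5665 and 2934 FPKM. Its log2FC was -0.74 in Ilpum and -0.95 in NIL. Quantile normalization of the 4 libraries, which sets each value by the rank of the gene in its library, put these at 0.00 and -0.35. In CPM they were -0.71 and -0.94. The other Lhcb1 gene, Os01g0600900 (chromosome 1, 23607363 to 23608541), stood at 7873, 3720, 7370 and 1674 FPKM, a log2FC of -1.08 in Ilpum and -2.14 in NIL. In Ilpum its value depended on the scale, at -1.53 in CPM and -0.43 with quantile normalization, the latter short of 2-fold. The infested library was the lower one for both genes in each line. For Os01g0600900 NIL stood 2.22-fold below Ilpum in the infested pair and 1.07-fold below it in the control pair by FPKM. In CPM the log2 ratios of NIL to Ilpum were -1.06 (-1.16 to -0.97) and -0.46 (-0.49 to -0.43). Its transcript of 1179 bases was assigned 49.2% of FPKM in Ilpum control, 0% in Ilpum GRH and 11.4% in NIL control.

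Lhcb2 (Os03g0592500) and Lhcb3 (Os07g0562700) form the trimeric antenna of photosystem II together with Lhcb1. Lhcb2 was at 2511, 1472, 1631 and 520 FPKM, a log2FC of -0.77 in Ilpum and -1.65 in NIL. Lhcb3 was at 2355, 1027, 1053 and 292 FPKM, a log2FC of -1.20 and -1.85. Ilpum GRH and NIL control had nearly equal levels of both genes, and NIL GRH stood alone at the bottom.

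The minor antenna proteins Lhcb4 (CP29) and Lhcb6 (CP24), which connect the trimers to the photosystem II core, had the lowest infested levels among the abundant antenna genes. Lhcb4 (Os07g0558400, chromosome 7, 22316343 to 22317935) was at 662, 238, 574 and 57.2 FPKM, from 1787, 278, 3670 and 86 reads. Its log2FC was -1.48 in Ilpum and -3.31 in NIL, with counting intervals of -1.63 to -1.26 and -3.64 to -3.00. Lhcb6 (Os04g0457000) was at 500, 175, 316 and 41.6 FPKM, a log2FC of -1.51 and -2.90. For both genes the control libraries of the lines lay within 2-fold of each other and the infested libraries were over 4-fold apart.

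The photosystem I antenna genes behaved alike in direction. Lhca1 (Os06g0320500) stood at 1819, 1061, 1430 and 363 FPKM and Lhca2 (Os07g0577600) at 1378, 816, 1099 and 324 FPKM. Their log2FC was -0.78 and -0.76 in Ilpum, and -1.97 and -1.76 in NIL. Lhca3 (Os02g0197600) was lower with GRH by nearly the same amount in both lines, at 2818 and 1121 FPKM in Ilpum and 1156 and 418 FPKM in NIL, a log2FC of -1.33 and -1.47. Its NIL control level was as low as its Ilpum GRH level. Lhca5 (Os02g0764500) was rare, with 12 and 36 reads in the Ilpum and NIL controls and 0 in both infested libraries. With a floor of 3 reads in place of 0, GRH levels were 1.69-fold (Ilpum) and 2.79-fold (NIL) lower in CPM. The counting intervals reached up to log2 ratios of -0.23 and -1.11. The median log2FC over the 4 compared Lhca genes was -1.05 in Ilpum and -1.87 in NIL, and over the 6 Lhcb genes -1.14 and -1.99.

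The remaining antenna members were rare. Os02g0610700 and Os09g0296800, which encode proteins with a chlorophyll-binding domain only, had between 8.16 and 27.6 FPKM in every library. The log2FC of Os02g0610700 was -0.60 in Ilpum and 0.13 in NIL, and its Ilpum value turned to 0.19 in CPM. Os09g0296800 had -0.47 in Ilpum and -0.27 in NIL, with counting intervals that held 0. These were the antenna genes with the least change over both lines. Os01g0720500 and Os03g0165375, described as fragments or relatives of chlorophyll a/b binding proteins, had at most 145 and 13 reads per library, and 5 further antenna loci had 0 to 12 reads and did not reach 1 FPKM on average. A pair of abundant antenna genes lay outside the word rule because their descriptions use other terms. The gene described as ASCAB9 (Os11g0242800) was at 2142, 655, 1047 and 179 FPKM, and the one described as LHC I type IV (Os08g0435900) at 3136, 871, 2159 and 287 FPKM. Both were singled out after the values were seen and are in no count here.

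**Figure D2:**
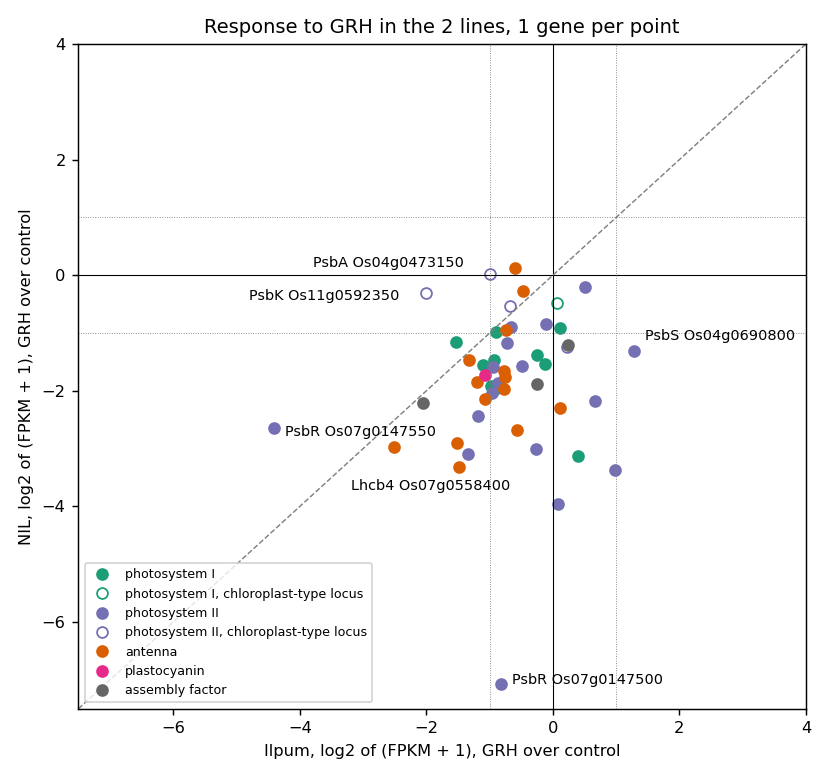
log2FC with GRH in Ilpum (horizontal) against NIL (vertical) for the 50 compared genes, coloured by group, with open circles for loci described as chloroplast-encoded subunits, dotted lines at 2-fold and a dashed line of equal response. Most points lie left of 0 and below the dashed line, and PsbA and PsbK lie above it.

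Photosystem I genes were mostly lower by less than 2-fold in Ilpum and mostly past 2-fold lower in NIL. In Ilpum 2 of 11 were at least 2-fold lower, or 18.2% against 28.6% of all genes, and 3 of 11 had values above 0. These 3 were PsaD, the PsaC locus and the PsaN family gene Os03g0731100. They had at most 24 reads in either Ilpum library, and their counting intervals in Ilpum held 0. In NIL 8 of 11 were at least 2-fold lower, against 20.9% of all genes. None was that much higher, and the median log2FC was -0.90 and -1.46. Summed CPM had a log2 ratio of -0.88 (-0.94 to -0.83) in Ilpum and -1.48 (-1.54 to -1.41) in NIL. PsaO and PsaL, subunits at the side of the complex where antenna trimers dock, were the most abundant. PsaO (Os04g0414700) was at 1758, 894, 1024 and 269 FPKM, a log2FC of -0.98 in Ilpum and -1.92 in NIL. PsaL (Os12g0420400) was at 1626, 870, 971 and 493 FPKM, a log2FC of -0.90 and -0.98. The infested PsaO level of NIL was thus the lowest by a wide margin, while the PsaL levels of NIL were about as far apart as those of Ilpum.

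PsaH (Os05g0560000), another subunit of that docking side, was at 1136, 525, 898 and 305 FPKM, a log2FC of -1.11 in Ilpum and -1.55 in NIL, and -0.94 in Ilpum with quantile normalization. PsaG (Os09g0481200), which anchors the photosystem I antenna, was at 1233, 647, 549 and 200 FPKM, a log2FC of -0.93 and -1.46. Os07g0148900, described only as photosystem I protein-like, was at 1144, 602, 607 and 153 FPKM, a log2FC of -0.93 and -1.98. NIL GRH was again the lowest library for all of them.

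PsaF and PsaN lie on the lumen side, where plastocyanin docks. PsaF (Os03g0778100) was at 1022, 353, 484 and 218 FPKM, and it was 1 of few members with a stronger response in Ilpum (-1.53) than in NIL (-1.15). PsaN (Os12g0189400) was at 550, 504, 227 and 78.0 FPKM, a log2FC of -0.12 in Ilpum, where the counting interval (-0.28 to 0.10) held 0, and -1.53 in NIL. A second gene of the PsaN family (Os03g0731100) had 24, 14, 24 and 0 reads. PsaE (Os07g0435300), on the stromal side where ferredoxin binds, was at 401, 337, 410 and 157 FPKM, a log2FC of -0.25 in Ilpum and -1.38 in NIL, and was thus the photosystem I subunit with equal levels in the control libraries and a gap between the infested ones.

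Photosystem II held the widest range of responses. At least 2-fold lower were 5 of 21 genes in Ilpum and 15 of 21 in NIL, and the median log2FC was -0.68 and -1.58. Of all genes, 28.6% in Ilpum and 20.9% in NIL were that much lower, so the Ilpum count lay below that share and the NIL count above it. Among the 17 nuclear subunits, with the chloroplast-type loci described further on left out, the counts were 3 and 14. Their summed CPM had a log2 ratio of -0.73 (-0.78 to -0.69) in Ilpum and -1.47 (-1.52 to -1.41) in NIL.

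The genes of PsbO, PsbP and PsbQ, subunits of the oxygen-evolving complex that shield the site of water splitting, were lower with GRH in both lines. PsbO (Os01g0501800) was at 1576, 818, 1283 and 429 FPKM, a log2FC of -0.95 in Ilpum and -1.58 in NIL. PsbP (Os07g0141400) was at 1917, 1052, 1204 and 329 FPKM, a log2FC of -0.86 and -1.87. PsbQ (Os07g0544800) changed less, with 619, 390, 664 and 359 FPKM and a log2FC of -0.67 and -0.89, and its levels in the lines were nearly equal in each treatment. A gene of the PsbQ family with 77.4, 81.9, 47.1 and 2.10 FPKM (Os07g0105600, from 134, 62, 193 and 3 reads) was level in Ilpum and nearly absent from NIL GRH, a log2FC of 0.08 and -3.95.

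PsbR, a small subunit that helps to bind the oxygen-evolving proteins, has 3 loci. Os08g0200300 carried nearly all of its mRNA, at 3189, 1938, 2709 and 1196 FPKM, a log2FC of -0.72 in Ilpum and -1.18 in NIL. The other loci lie next to each other on chromosome 7 (2454338 to 2455636 and 2456969 to 2458136). Os07g0147500 had 184, 45, 432 and 0 reads and Os07g0147550 had 29, 0, 253 and 9 reads. With the floor of 3 reads in place of 0, Os07g0147500 was 33.5-fold lower with GRH in NIL, and Os07g0147550 4.08-fold lower with GRH in Ilpum. Their counting intervals there reached up to log2 ratios of -4.76 and -1.64. The neighbours carry the same description, and how reads were split between them is uncertain. Summed, they had 213, 45, 685 and 9 reads, a log2 ratio of CPM of -1.0 (-1.50 to -0.53) in Ilpum and -4.14 (-5.28 to -3.21) in NIL, so the infested level was the lower one in both lines however the reads were split.

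PsbS senses lumen acidity and sets the dissipation of excess light as heat. Its main gene, Os01g0869800, was at 144, 120, 118 and 13.8 FPKM, a log2FC of -0.27 in Ilpum and -3.00 in NIL. The minor gene, Os04g0690800, had 10, 13, 302 and 28 reads, or 4.07, 11.3, 51.7 and 20.3 FPKM. It was the only 1 of the 50 genes past 2-fold upwards in Ilpum, at a log2FC of 1.28 from few reads (counting interval 0.32 to 2.97), and it was at -1.31 in NIL. No other member passed 2-fold in opposite directions in the lines, which 6.03% of all genes did. With 10 FPKM added in place of 1 the Ilpum value was 0.60, short of 2-fold. The NIL control library stood above the other 3 for this gene. Summed over both genes, PsbS was at -0.13 (-0.43 to 0.16) in Ilpum and -2.27 (-2.73 to -1.85) in NIL in CPM.

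PsbW, PsbY and a PsbX family gene, small membrane subunits of photosystem II, shared 1 order of libraries, with NIL control second and NIL GRH lowest. PsbW (Os01g0773700) was at 536, 381, 477 and 160 FPKM, PsbY (Os08g0119800) at 123, 53.2, 79.5 and 13.9, and the PsbX family gene Os07g0673550 at 210, 107, 140 and 33.3. Their log2FC was -0.49, -1.19 and -0.97 in Ilpum and -1.57, -2.44 and -2.04 in NIL. A gene with a PsbX domain (Os03g0343900) was at 100.5, 92.9, 71.5 and 39.4 FPKM, a log2FC of -0.11 and -0.84. The gene described as a photosystem II 5 kD protein (Os02g0581100) went against the rest in Ilpum, at 38.0, 54.6, 40.2 and 34.7 FPKM, a log2FC of 0.51 and -0.21, with counting intervals that held 0 in both lines. Psb27 (Os03g0333400) and Psb28 (Os01g0938100), which act in the assembly and repair of the complex, had 50, 8, 107 and 2 reads and 18, 16, 36 and 0 reads. With the floor of 3 reads in place of 0, Psb28 was 2.79-fold lower with GRH in NIL (counting interval up to -1.11). In Ilpum it was 2.05-fold higher in FPKM, where the log2FC of 0.98 stayed short of 2-fold.

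**Figure D3:**
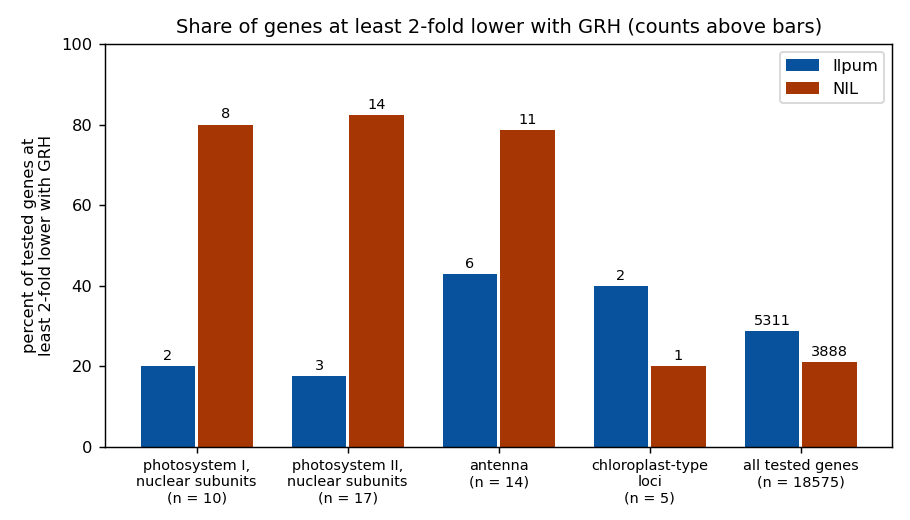
Percent of compared genes at least 2-fold lower with GRH in Ilpum and NIL, for nuclear photosystem I subunits, nuclear photosystem II subunits, antenna genes, chloroplast-type loci and all 18575 compared genes, with counts above the bars. The nuclear groups stand at 78.6% to 82.4% in NIL against 20.9% of all genes, and at 17.6% to 42.9% in Ilpum against 28.6%.

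Among the members, 8 nuclear loci are described as subunits that the chloroplast genome encodes, and 5 of them were compared. This split was made after the values were seen. Reads of chloroplast transcripts and of these loci cannot be told apart here. The locus described as PsbA, the D1 reaction centre protein (Os04g0473150, chromosome 4, 23653624 to 23654065), was at 4145 and 2072 FPKM in Ilpum and 5411 and 5497 FPKM in NIL, and a gene on the opposite strand overlaps it, at 0, 26.3, 81.0 and 52.7 FPKM. Its log2FC was -1.0 (counting interval -1.07 to -0.86) in Ilpum and 0.02 (-0.03 to 0.09) in NIL, and its NIL value was 1.10 with quantile normalization. The locus described as PsbK (Os11g0592350) had 85, 9, 330 and 63 reads, a log2FC of -2.01 and -0.30, and that described as PsbL (Os03g0667201) had 31, 9, 187 and 31 reads, a log2FC of -0.68 and -0.53. PsbI and PsaC loci had at most 35 and 9 reads per library.

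Summed over the 5 loci, CPM had a log2 ratio of -0.97 (-1.08 to -0.87) with GRH in Ilpum and 0.01 (-0.04 to 0.07) in NIL, most of it from the PsbA locus. Relative to nuclear photosystem II subunits, their summed FPKM was 0.514, 0.425, 0.853 and 2.27. Photosystem II with these loci summed to 13213, 7426, 13213 and 8637 FPKM, or 1.48, 1.56, 2.27 and 3.92 times photosystem I. The order of its infested libraries depends on the scale, since NIL GRH lay above Ilpum GRH in FPKM but below it in reads, with a log2 ratio of CPM of -0.26 (-0.31 to -0.20). Antenna sums were 29295, 15233, 20367 and 6658 FPKM and photosystem I sums 8900, 4768, 5809 and 2206 FPKM, with NIL GRH the lowest in each.

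Plastocyanin is encoded by Os06g0101600 (chromosome 6, 149486 to 150187). Its levels of 1143, 543, 989 and 299 FPKM gave a log2FC of -1.07 (counting interval -1.20 to -0.87) in Ilpum and -1.72 (-1.90 to -1.53) in NIL. The control libraries were close to each other and the infested ones were lower in each line. Of the assembly factors, HCF136 (Os06g0729650), needed to build the photosystem II core, had 93, 48, 178 and 17 reads, a log2FC of 0.24 in Ilpum and -1.20 in NIL. CYO1 (Os09g0458400), known from Arabidopsis for the greening of cotyledons, had 79, 20, 65 and 7 reads, a log2FC of -2.05 and -2.21. In CPM, CYO1 in Ilpum came to -0.74 (-1.52 to -0.02), and its infested reads lay on another annotated transcript than its control reads. The gene Os05g0480000, described as a kinase in photosystem II repair, had 164, 28, 275 and 8 reads, a log2FC of -0.25 and -1.88, or -1.31 and -3.00 in CPM. None of the 4 plastocyanin-like genes reached 1 FPKM on average.

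Over all 50 compared genes, 15 were at least 2-fold lower with GRH in Ilpum, or 30.0%, which is near the 28.6% of all genes, and 38 were so in NIL, or 76.0%, against 20.9%. Of the 28 that averaged 100 FPKM or more, 10 were at least 2-fold lower in Ilpum and 21 in NIL, where 15.2% and 8.31% of the 1143 genes at that level were. The median log2FC of these 28 was -0.93 in Ilpum and -1.56 in NIL, beside -0.08 and 0.21 for all genes at that level. In both lines at once, 13 of 50 genes were at least 2-fold lower (9.39% of all genes) and 37 were lower by any amount (32.9%). The counting interval lay wholly below 0 for 31 of 50 genes in Ilpum (27.7% of all genes) and 40 in NIL (24%), and wholly above 0 for 2 (26.1%) and 0 (24.1%). Such counts also grow with read depth, and many members are abundant. A drop of 4-fold or more was seen in 1 antenna gene, 0 photosystem I genes and 2 photosystem II genes in Ilpum (15.1% of all genes), and in 6, 1 and 9 in NIL (8.27%).

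The response in NIL was below that in Ilpum for 43 of 50 genes, against 47.5% of all genes. By group, this held for 10 of 11 photosystem I genes, 17 of 21 photosystem II genes and 12 of 14 antenna genes. The counting interval in NIL lay wholly below that in Ilpum for 31 genes (12.8% of all genes) and wholly above it for 3 (14.3%). With 1 library in each condition, the difference between the responses of the lines was not tested.

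Without insects, photosystem I had the largest count of genes apart between the lines for its size. At least 2-fold apart were 6 of 11 photosystem I genes (4 lower and 2 higher in NIL), 3 of 21 photosystem II genes and 3 of 14 antenna genes, where 28.1% of all genes were apart. The median log2 ratio of NIL to Ilpum was -0.78, -0.13 and -0.38 in these groups and -0.02 over all genes. In summed CPM the log2 ratio was -0.60 (-0.63 to -0.57) for photosystem I and -0.68 (-0.69 to -0.66) for the antenna, so the groups did not keep this order. The photosystem I genes higher in NIL were PsaD and the PsaC locus, the latter on 2 and 9 reads. PsaN, PsaG, PsaF, Lhca3 and Lhcb3 were 2.42-fold, 2.24-fold, 2.11-fold, 2.44-fold and 2.24-fold lower in NIL control by FPKM. With GRH, 7 of 11 photosystem I genes, 15 of 21 photosystem II genes and 10 of 14 antenna genes were at least 2-fold apart, with 48.7% of all genes. The medians were -1.10, -1.22 and -1.38, beside 0.00. Differences of 4-fold or more numbered 1, 1 and 0 in the control pair (7.38% of all genes) and 3, 7 and 2 in the infested pair (25%). These comparisons share their libraries with the responses above and are not independent of them.

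PsaD, the stromal subunit that docks ferredoxin, was the member with the largest ratio between the lines in the control pair. Its gene Os08g0560900 (chromosome 8, 28083386 to 28084239) had 17 and 8 reads in Ilpum and 2762 and 159 reads in NIL, or 9.89, 10.7, 624 and 328 FPKM. NIL was thus 63.1-fold higher in the control pair and 30.6-fold higher in the infested pair by FPKM, and both Ilpum libraries were far below both NIL libraries. In the infested pair, the PsbQ family gene Os07g0105600 was 39.0-fold lower in NIL by FPKM. The PsbR gene Os07g0147500 was 19.6-fold lower there with the floor of 3 reads in place of 0 (counting interval up to -3.94). PsaD was thus not clearly the most different member in the infested pair. The log2 ratio of CPM was 6.10 (5.41 to 6.88) and 3.93 (2.91 to 5.16). No annotated gene overlaps it, and no other member was at least 4-fold apart between the lines in the same direction in both treatments (2.1% of all genes were). The part that sequence differences between the lines have in its read counts was not tested. Within NIL its log2FC with GRH was -0.92, and -2.01 (-2.25 to -1.78) in CPM.

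**Figure D4:**
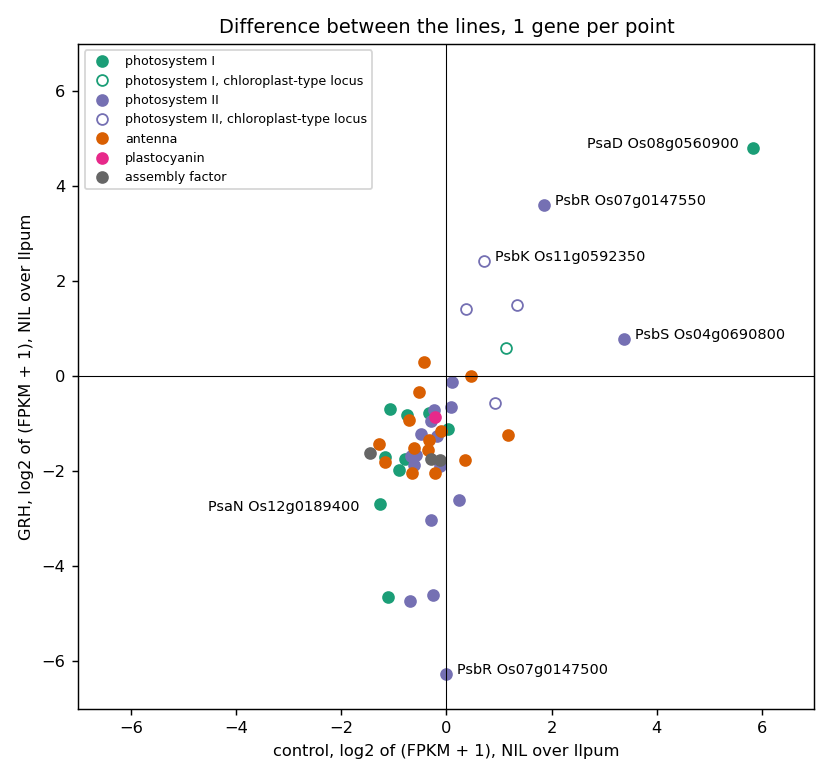
log2 ratio of FPKM + 1, NIL over Ilpum, in control (horizontal) and GRH (vertical) libraries for the 50 compared genes, coloured by group, with open circles for chloroplast-type loci. PsaD stands alone at 5.84 and 4.81, and most genes lie below 0 on the vertical axis.

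The gap between FPKM and CPM in PsaD came with a change of transcript. In NIL control, 73.5% of its FPKM was assigned to the transcript of 852 bases and 26.3% to that of 831 bases, and in NIL GRH 100% was assigned to that of 395 bases. Of the 15 members with several annotated transcripts, 7 had a transcript that went from above 50% to below 10% of the gene's FPKM with GRH or the reverse, 4 in Ilpum and 6 in NIL. In PsbP the first transcript held 98.8% in NIL control and 0.143% in NIL GRH, although it is only slightly longer than the other (1109 and 1078 bases). In PsaL the first transcript held 61.5% in Ilpum control and 0% after infestation, but 9.67% and then 99.7% in NIL, which are opposite directions. In PsaF the third transcript went from 82.1% to 0.00822% in NIL. Such shares rest on the assignment of reads to transcripts that share most of their sequence, with 1 library each, and whether they reflect transcript use was not tested.

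**Figure D5:**
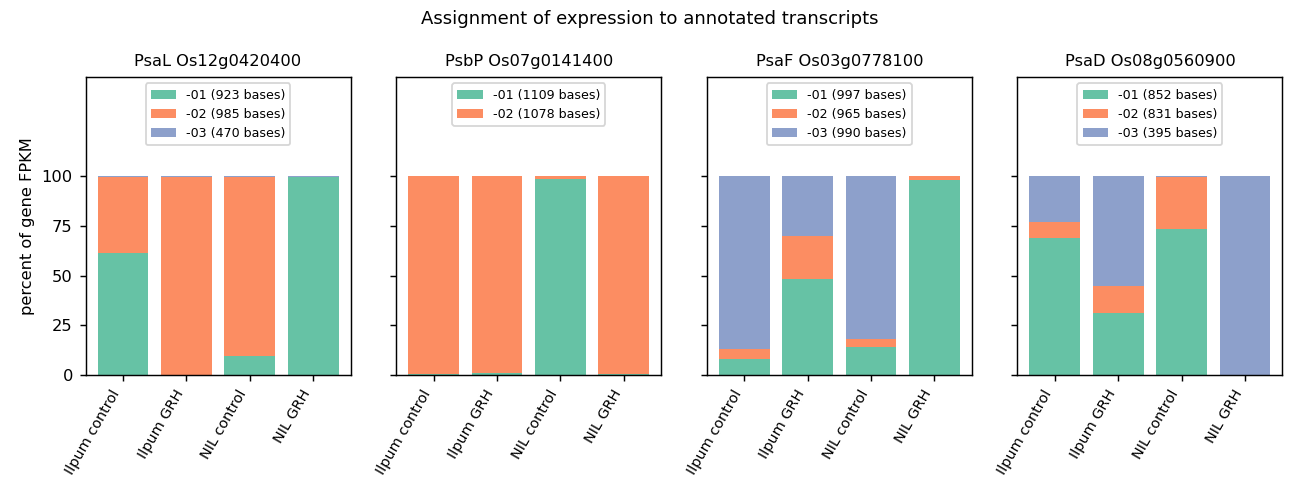
Percent of gene FPKM assigned to each annotated transcript (coloured, with its length in bases) of PsaL, PsbP, PsaF and PsaD in the 4 libraries. The leading transcript differs between the control and GRH libraries in NIL for all 4 genes.

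Other genes of the same electron transport chain moved by differing amounts. The core cytochrome b6f genes PetC (Os07g0556200) and PetM (Os03g0765900) were at 852, 468, 591 and 305 FPKM and at 69.1, 57.9, 56.7 and 11.2 FPKM. The log2FC of PetC was -0.86 in Ilpum and -0.96 in NIL, and that of PetM -0.25 and -2.24. Over the list of 7 compared genes with Rieske or cytochrome b6f in their description, which includes mitochondrial and chlorophyll-modifying proteins, 0 were at least 2-fold lower in Ilpum and 2 in NIL. The shares of all genes to set beside these and the next counts are 28.6% lower and 20.4% higher in Ilpum, and 20.9% and 14.7% in NIL. The gamma chain of the chloroplast ATP synthase (Os07g0513000) was at 704, 403, 420 and 140 FPKM, a log2FC of -0.80 in Ilpum and -1.58 in NIL. Of 20 compared genes with ferredoxin in their description, which include an adrenodoxin-like reductase, 10 were at least 2-fold lower in Ilpum and 11 in NIL. In this list 1 and 0 were that much higher, and the median log2FC was -0.97 in Ilpum and -1.25 in NIL. Of 25 compared genes with words for chlorophyll synthesis in their description, 7 were at least 2-fold lower and 7 higher in Ilpum, and 10 lower and 1 higher in NIL. This list also took in a siroheme methyltransferase and a mitochondrial protoporphyrinogen oxidase, the latter at a log2FC of 4.46 in Ilpum. The Ilpum share lower was at that of all genes. The median log2FC was -0.54 and -0.62, well above the antenna median in NIL.

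The genes Os06g0348800 and Os01g0239000, listed as GOLDEN2-LIKE factors that activate antenna genes in other plants, were at 142, 51.0, 82.3 and 42.7 FPKM and at 135, 64.6, 94.8 and 58.7 FPKM. Their log2FC was -1.46 and -1.05 in Ilpum and -0.93 and -0.68 in NIL, so these genes had the larger response in Ilpum, unlike the antenna genes. Among the leaf markers, rubisco activase (Os11g0707000) was at 11706, 3998, 6429 and 2869 FPKM, a log2FC of -1.55 and -1.16. The rubisco small subunit genes Os12g0274700 and Os12g0291100 were at 2109, 1025, 2082 and 333 FPKM and at 1255, 1672, 2033 and 321 FPKM. All 6 compared leaf markers were at least 2-fold lower with GRH in NIL and 3 of 6 in Ilpum, and the part of leaf composition in the member counts was not tested.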

How the data were processed

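The authors trimmed reads with Trimmomatic and assigned them with StringTie 1.3.4d to the IRGSP-1.0 annotation of rice. They deposited estimated read counts per gene and transcript, FPKM, TPM and base coverage, and 1 set of values exists per condition although the methods describe duplicate samples. The labels name an mRNA kit and the methods a stranded total RNA kit, so how chloroplast transcripts, which mostly lack poly(A) tails, were captured is uncertain. Deposited gene counts equal the sums over transcripts for 100% of genes. FPKM was used for levels and log2 ratios (1 FPKM added), deposited estimated counts for intervals and CPM (counts scaled to library totals), deposited TPM as an alternative, and the deposited coverage signal was not analysed further.

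Libraries held 894661 to 5037081 counts, and 3 reads (the floor) correspond to 0.596 to 3.35 CPM. Genes needed a mean of at least 1 FPKM, and a difference of at least 2-fold was counted. Intervals are exact binomial (Clopper-Pearson) at 95% on the reads of 2 libraries and cover counting error only, so they compare libraries, not conditions. Named genes were, in each of photosystem I, photosystem II and antenna, the 4 with the highest mean FPKM, the 2 most positive and 2 most negative by mean response (mean of at least 10 FPKM), those past 2-fold in opposite directions, all plastocyanin genes, the extremes of the rest, and those with a mean of at least 50 reads but 0 in a library; other members were added to complete each complex, after their values were seen. Members and lists were chosen with earlier results of these data known. Alternatives covered the pseudocount, filters, quantile normalization, TPM, counts scaled by edgeR 4.0.16 (TMM) and DESeq2 1.42.0 size factors, single-transcript genes and a 4-fold threshold. Python 3.11.15, pandas 2.3.3, numpy 2.4.6, scipy 1.17.1 and R 4.3.3 were used, and the scripts were tested on simulated data.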

Additional observations from a re-analysis of the deposited data

Results flagged for a closer look

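For 13 of the 50 compared members the infested library lay above its control in one line and below it in the other, which is 26% against 37.2% of all genes, and the differences between the responses were not tested because each condition had 1 library. The NIL response minus the Ilpum response, in log2FC, was -2.59 for the minor PsbS gene Os04g0690800 (1.28 in Ilpum and -1.31 in NIL), which alone was past 2-fold in both lines. It was -4.35 for Psb28 (Os01g0938100, 0.98 and -3.37), -4.04 and -2.84 for the PsbQ family genes Os07g0105600 (0.08 and -3.95) and Os04g0523000 (0.66 and -2.18), and -0.72 for the photosystem II 5 kD gene Os02g0581100 (0.51 and -0.21). In photosystem I it was -3.52 for the PsaN family gene Os03g0731100 (0.39 and -3.13) and -1.03 for PsaD (Os08g0560900, 0.11 and -0.92). Among loci described as chloroplast-encoded subunits it was 1.02 for PsbA (Os04g0473150, -1.0 and 0.02), -1.48 for PsbI (Os08g0433350, 0.23 and -1.25) and -0.54 for PsaC (Os09g0485201, 0.06 and -0.48). It was -1.44 for the assembly factor HCF136 (Os06g0729650, 0.24 and -1.20). Among antenna genes it was 0.73 for the chlorophyll-binding domain gene Os02g0610700 (-0.60 and 0.13) and -2.40 for the fragment Os01g0720500 (0.11 and -2.29). Psb28, Os04g0523000 and Os03g0731100 had 0 reads in NIL GRH, so their fitted values depend on the FPKM added before the ratio. The Ilpum counting interval held 0 for all listed genes except Os04g0690800, Psb28 and PsbA, so most of the Ilpum directions lie within counting error. For PsbA the NIL interval held 0. The fragment Os01g0720500 had 4 and 2 reads in the Ilpum control and GRH libraries.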

How the results depend on the processing

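No named gene past 2-fold changed direction under the alternatives, while a count of genes has no direction to reverse. Of 156 recomputed counts, 131 stayed within 1.5 times their main value. Of 144 recomputed medians, 71 moved by more than the counting error of the summed reads. In NIL median log2FC ranged from -2.04 to -1.17 for photosystem II, -2.33 to -1.54 for the antenna and -1.69 to -1.33 for photosystem I. With a 4-fold threshold, genes lower with GRH in Ilpum and NIL were 1 and 6 for antenna, 0 and 1 for photosystem I and 2 and 9 for photosystem II, and genes apart between the lines in control and GRH were 0 and 2, 1 and 3, and 1 and 7. Among genes with a single annotated transcript, 2 and 4 antenna genes were lower in Ilpum and NIL, 0 and 4 were apart in control and GRH, and 1 photosystem I gene was lower in Ilpum. Over all genes with a single transcript, 30.1% were lower in Ilpum and 21.7% in NIL. Among genes averaging 100 reads or more, photosystem II had 3 and 8 lower in Ilpum and NIL and 0 and 9 apart in control and GRH. Over all genes at that read level, 18.7% were lower in Ilpum and 9.29% in NIL. Photosystem II had 3 genes lower in Ilpum with 10 FPKM added, and 3 without chloroplast-type loci, an alternative chosen after seeing the data. The shares of all genes lower in Ilpum were 8.27% and 28.6% under these settings. Quantile normalization left 1 photosystem I gene lower in Ilpum, where 24.4% of all genes were, and no filter gave 5 antenna genes apart in control. Shares of all genes at least 2-fold apart were computed in the main setting only, at 28.1% in control and 48.7% with GRH. The counts apart under other filters therefore cannot be set against all genes. TMM scaling moved the median of all genes with GRH from -0.06 to -0.20 in NIL. The cause of these shifts was not tested beyond the smaller number of genes that a filter leaves. No paired analysis was possible because each condition had 1 library and no result came from a test. Depth limits genes under about 50 reads in the infested libraries most.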
